A study of Mus musculus with 6 samples.

Results

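Connecting tubule nuclei were taken from single-nucleus RNA counts of mouse kidney cortex by their UMIs (unique molecular identifiers, each standing for 1 captured RNA molecule). A nucleus was kept if it had at least 4 UMIs over Slc8a1, Calb1 and Trpv5 together, with at least 2 of these genes detected. It was also limited to at most 2 UMIs of Slc12a3, at most 1 each of Aqp2, Slc12a1 and Slc34a1, and 0 of Nphs1, Flt1 and Slc26a4. These limits are aimed at distal convoluted tubule, principal, thick ascending limb, proximal tubule, podocyte, endothelial and type B intercalated nuclei, which these genes mark. The rule found 363 nuclei among 61939 barcodes, a share of 0.586%, once barcodes with under 300 genes or with over 5% mitochondrial UMIs were left out. Since the counts of these 10 genes chose the nuclei, their levels are given only as a description.

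The connecting tubule joins the distal convoluted tubule to the collecting duct and is a site of regulated calcium and sodium uptake. Calcium enters its cells through the channel Trpv5, is carried by the calbindins Calb1 and S100g, and leaves on the blood side through the sodium-calcium exchanger Slc8a1 and plasma membrane calcium pumps of the Atp2b family. Vitamin D, parathyroid hormone and klotho act on this route. Sodium enters through the epithelial channel ENaC, made of Scnn1a, Scnn1b and Scnn1g, under control of aldosterone and its receptor Nr3c2. In the mouse the late distal convoluted tubule carries the same calcium genes beside the sodium-chloride cotransporter Slc12a3, so the border between the 2 segments is gradual.

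All 6 libraries came from FVB/N mice with floxed Klf4 alleles (Klf4 fl/fl). The 3 controls carried no Cre in their label, and the 3 knockouts carried Podocin-Cre, a recombinase driven by a promoter that is active in podocytes and not known for activity in the tubule. Ages are not given in the sources used here. The comparison asks how cortex cells, here those of the connecting tubule, differ when Klf4, a transcription factor, is deleted in podocytes. Nothing in the labels says that libraries of 1 group came from separate animals, so p-values measure the spread between these libraries.

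The libraries held 3919 to 22080 barcodes and 8270961 to 62016616 UMIs. Control 1 and knockout 1 stood apart from the other 4, with 21957 and 22080 barcodes against 3919 to 6079. Their median mitochondrial share over kept barcodes was 2.50 and 1.02%, against 0.0851 to 0.162% in the others. No barcode of a connecting tubule nucleus occurred in the connecting tubule set of another library, and pairs of libraries shared 5 to 121 of their kept barcodes. Klf4 itself could not check the genotype labels: 1 UMI was found in 144 connecting tubule nuclei of controls and 1 in 219 of knockouts. In nuclei with at least 2 UMIs of the podocyte gene Nphs1 there were 2 Klf4 UMIs in 250 control and 6 in 331 knockout nuclei. The 2 were all in control 1 and the 6 all in knockout 1, so these counts show no loss.

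The controls gave 27, 44 and 73 connecting tubule nuclei and the knockouts 98, 34 and 87. As a share of kept barcodes these were 0.137, 1.14 and 1.39% in controls and 0.444, 0.669 and 1.43% in knockouts. The groups overlapped over nearly their whole range, and the library with the lowest share in each group was the one numbered 1. The mean share was 0.892% ± 0.666 (SD, n = 3) in controls and 0.849% ± 0.519 (SD, n = 3) in knockouts, a difference of -0.0429 points (two-sided exact permutation test over 20 assignments, p = 1, where the smallest p possible is 0.1). The difference kept no fixed sign when a library was left out. Per 100 distal convoluted tubule nuclei the spread was narrower, at 20.1, 33.6 and 26.3 in controls and 20.99, 26.0 and 31.0 in knockouts. Their means of 26.7 ± 6.73 and 26.0 ± 4.99 (SD, n = 3 each) lay within each other's spread (exact permutation test, p = 0.9).

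**Figure D1:**
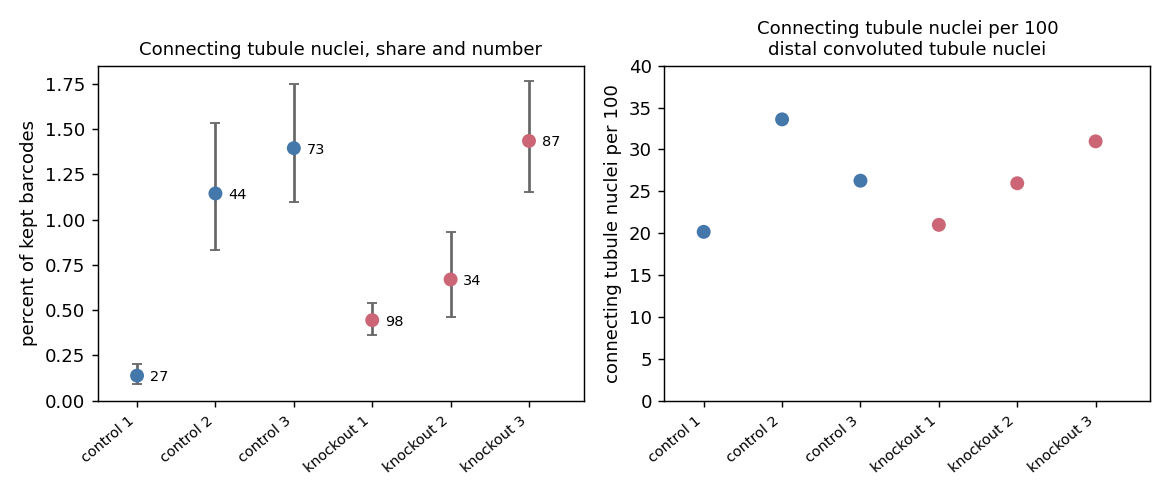
Left, percent of kept barcodes that met the connecting tubule rule in each library, with the exact Clopper-Pearson 95% interval as bars (counting error only) and the number of nuclei beside each point. Right, connecting tubule nuclei per 100 distal convoluted tubule nuclei. Blue points are controls and red points knockouts. The shares run from 0.137 to 1.43%, while the numbers per 100 run from 20.1 to 33.6.

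These nuclei were shallow. Their median UMI count was 1458, 816 and 1003 in controls and 1148, 822.5 and 926 in knockouts, and all 363 nuclei together held 423443 UMIs. The rule was thus met on few molecules: 30 nuclei had a marker sum of exactly 4, and 24 nuclei just outside had a sum of 3. At the other edge, 13 nuclei had 2 UMIs of Slc12a3 and 13 just outside had 3. A larger set of 489 nuclei met the marker part of the rule but had 3 or more Slc12a3 UMIs. A further 416 had at least 4 UMIs of only 1 of the 3 markers.

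Slc8a1 carried most of the marker signal. Calb1 was detected in 301 of the 363 nuclei and Trpv5 in 105, and 43 nuclei had all 3 genes. Slc12a3 was at 0 in 299 nuclei, at 1 in 51 and at 2 in 13. In summed counts per 1000000 UMIs of these nuclei (CPM), Slc8a1 was at 13178, 39588 and 17027 in controls and 16726, 40115 and 57136 in knockouts. Calb1 lay at 1039, 1966 and 1446 in controls and 1136, 1412 and 3595 in knockouts. Knockout 3 was thus highest for both genes, and the other 5 libraries overlapped between groups. Trpv5 was lower throughout, at 283, 236 and 216 in controls and 301, 288 and 352 in knockouts, with no overlap between the groups.

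Markers that the rule had not used were present. All 8 of a second list were detected in every library (S100g, Klk1, Scnn1b, Scnn1g, Tfap2b, Gata3, Atp2b1 and Hsd11b2). Their summed level was 2045 to 3665 CPM in control and 1758 to 3584 in knockout nuclei. In proximal tubule nuclei the list summed to 220 to 396 and 225 to 287 CPM. Distal convoluted tubule nuclei, of the neighbouring segment, held it at 767 to 1072 and 758 to 912 CPM. Against that segment Atp2b1 was lower and Tfap2b and Gata3 did not pass, as given further on. In connecting tubule nuclei Hsd11b2, the enzyme that shields the mineralocorticoid receptor from glucocorticoids, was at 142, 184 and 239 CPM in controls. It was at 155, 57.6 and 187 CPM in knockouts. The water channel gene Aqp2 was limited by the rule to 1 UMI per nucleus, and 38 nuclei had 1.

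RNA of other cell types was also present. The 14 proximal tubule markers summed to 17902, 5742 and 3278 CPM in the control and 5593, 3314 and 3089 CPM in the knockout nuclei, so control 1 stood far above the rest, and the 2 libraries numbered 1 and control 2 exceeded the other 3. Proximal tubule nuclei themselves held this list at 15780 to 25540 CPM in controls and 16110 to 21090 in knockouts, so control 1 lay within their range. At least 2 UMIs of other cell types were found in 110 of the 363 nuclei and in 17 of the 27 of control 1. All 14 were detected in every library but knockout 2, where 3 were at 0. The 8 podocyte markers summed to 1363 to 1417 CPM in controls and 956 to 1124 in knockouts, without overlap, but nearly all of this was Magi2, a scaffold gene that other epithelial cells also express (57 of 60 UMIs in control 1). In proximal tubule nuclei the same list summed to 1001 to 1557 CPM and in distal convoluted tubule nuclei to 1139 to 1848. Nphs1 was at 0 by the rule. Markers of the distal convoluted tubule, among them Slc12a3, which the rule limits, summed to 3543 to 5453 CPM in controls and 3623 to 6882 in knockouts. In distal convoluted tubule nuclei, chosen by Slc12a3, that list was at 28190 to 40780 and 26110 to 30600 CPM. In connecting tubule nuclei intercalated markers summed to 648.8 to 1346 CPM in controls and 618 to 1182 in knockouts. Immune markers there stayed at 21.99 to 208.6 CPM. The mitochondrial share of the median nucleus was 3.28% in control 1 and 1.24% in knockout 1, against 0.0997 to 0.179% in the other libraries. Doublet scoring with Scrublet called 0 to 2 barcodes per library at its automatic threshold and so did not work here. When the highest scores were removed instead, 9 of the 363 nuclei were lost.

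Slc8a1 varied widely among the nuclei of each library. As a share of the UMIs of each nucleus its median was 1.25, 2.38 and 0.986% in controls and 0.826, 3.68 and 6.22% in knockouts. The highest nucleus of a library reached 5.23 to 16.5%. At a limit of 3%, chosen after the values were seen, 130 nuclei lay above and 233 below. The share above it was 7.41, 45.5 and 16.4% in controls and 17.3, 52.9 and 70.1% in knockouts. In each group the library numbered 1 was the lowest, and control 2 lay within the range of the knockouts.

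**Figure D2:**
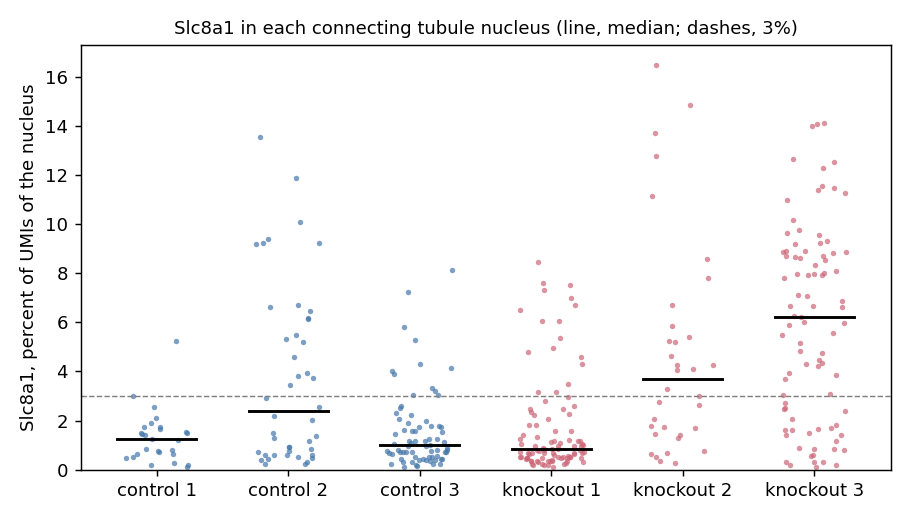
Each point is 1 connecting tubule nucleus, with Slc8a1 as percent of its UMIs on the vertical axis and the library on the horizontal axis. Black lines are medians and the dashed line is the 3% limit. Most nuclei of knockout 3 lie above the line (70.1%), and most of control 1, control 3 and knockout 1 lie below it.

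Levels of other genes on both sides of this limit follow. The split uses a gene of the rule, so they are a description with no test. They are pooled over libraries of unequal weight, and control 1 had only 2 nuclei above the limit. Those nuclei held 2537 UMIs, so a gene found below the limit but missed above it counted as lower in control 1. Of 1783 genes with at least 50 UMIs, 40 (2.24%) were higher above the limit in all 6 libraries and 84 (4.71%) were lower in all 6. Trpm6, the magnesium entry channel known from the distal convoluted tubule, was at 360 to 604 CPM above the limit and 73.1 to 150.7 below it in controls, and at 1074 to 1638.5 and 136 to 241 CPM in knockouts. It was higher above the limit in 6 of 6 libraries, on 1 UMI in control 1. The salt-sensing kinase gene Wnk1 was at 5267 and 1613 CPM, also in 6 of 6 libraries. Klotho (Kl), a co-receptor of the calcium and phosphate hormone axis, was at 1990 and 690.7 CPM, and Vdr, the vitamin D receptor, at 1150 and 526 CPM. The channel subunit gene Scnn1g was at 998 and 470 CPM, again higher in all 6. In the other direction Nedd4l, a ubiquitin ligase that removes ENaC from the membrane, was at 810 and 1409 CPM and lower in 6 of 6. Col26a1, a collagen gene, had 3 UMIs above the limit and 96 below it. The glycosyltransferase gene Mgat4c had 1 UMI above it and 59 below. Both are based on 138210 UMIs above and 285233 below the limit. S100g and Slc12a3 were at nearly the same level on both sides, with 260 and 242 CPM for S100g and 181 and 182 CPM for Slc12a3.

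To place these nuclei along the nephron, they were compared with distal convoluted tubule nuclei, defined by at least 5 Slc12a3 UMIs and the same limits on Aqp2, Slc12a1, Slc34a1, Nphs1, Flt1 and Slc26a4. There were 1422 of them, of which 466 also met the marker part of the connecting tubule rule. Counts were summed per library and segment, and the segments were compared within libraries (edgeR quasi-likelihood test, Benjamini-Hochberg adjusted p under 0.05), leaving out the 10 genes of the rule. Of 2477 genes tested, 349 passed (14.1%), with 166 higher (6.7%) and 183 lower (7.39%) in the connecting tubule. Since both sets were cut on levels of marker genes, genes that follow those markers from nucleus to nucleus were bound to differ.

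Sodium channel subunits were among the clearest differences. Scnn1g was at 236, 341 and 922 CPM in control and 448, 288 and 1099 CPM in knockout connecting tubule nuclei. In distal convoluted tubule nuclei Scnn1g was at 43.0, 24.5 and 40.2 CPM in controls and 56.2, 33.0 and 50.05 CPM in knockouts. The lowest connecting tubule value was above every distal convoluted tubule value, with a log2 difference of 3.66 ± 0.21 (SE, adjusted p = 2.77e-19). Scnn1b differed by 3.02 ± 0.18 (SE, adjusted p = 2.77e-19), with 489.9 to 1044 CPM in the 6 libraries' connecting tubule and 73.4 to 101 in their distal convoluted tubule nuclei. The third subunit gene, Scnn1a, was at 86.5 to 341 and at 114 to 184 CPM, a difference of 0.36 ± 0.23 that did not pass (adjusted p = 0.383). Of the 11 sodium and potassium genes tested, 2 were higher, the subunits Scnn1g and Scnn1b, and 2 were lower, among them Fxyd2, a regulator of the sodium pump (-0.81 ± 0.16), beside 6.7 and 7.39% over all genes. The list's median was -0.02, against 0.00 over all genes tested.

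Scnn1b and Scnn1g lie on the same strand of chromosome 7 (GRCm38, Scnn1g at chr7:121734479-121768475 and Scnn1b at chr7:121865038-121918514). Because they were high together in this segment, 300 bases around each RefSeq transcript start are shown, with those of Trpm6 on chromosome 19, whose knockout difference is described further on. The sequences are from RefSeq on GRCm38.p6, plus strand, at chr7:121734229-121734528, chr7:121864788-121865087 and chr19:18749480-18749779. The Trpm6 window follows the RefSeq start and ends upstream of the GENCODE start given further on. Capitals mark a match, on either strand, to the AP-2 motif GCCNNNGGC, searched since Tfap2b is an AP-2 factor of the distal nephron.
Scnn1g: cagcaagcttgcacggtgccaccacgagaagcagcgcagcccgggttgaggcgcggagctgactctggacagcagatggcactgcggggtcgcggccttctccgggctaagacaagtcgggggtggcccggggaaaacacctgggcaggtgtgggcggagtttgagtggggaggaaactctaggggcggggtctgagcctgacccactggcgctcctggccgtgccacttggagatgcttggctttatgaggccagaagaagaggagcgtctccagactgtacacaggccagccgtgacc
Scnn1b: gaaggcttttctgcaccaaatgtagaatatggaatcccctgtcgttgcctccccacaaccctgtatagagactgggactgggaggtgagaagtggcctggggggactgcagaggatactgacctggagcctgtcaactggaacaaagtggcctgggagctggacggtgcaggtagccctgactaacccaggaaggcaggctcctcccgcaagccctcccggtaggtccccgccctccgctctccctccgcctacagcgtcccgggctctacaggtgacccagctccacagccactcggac
Trpm6: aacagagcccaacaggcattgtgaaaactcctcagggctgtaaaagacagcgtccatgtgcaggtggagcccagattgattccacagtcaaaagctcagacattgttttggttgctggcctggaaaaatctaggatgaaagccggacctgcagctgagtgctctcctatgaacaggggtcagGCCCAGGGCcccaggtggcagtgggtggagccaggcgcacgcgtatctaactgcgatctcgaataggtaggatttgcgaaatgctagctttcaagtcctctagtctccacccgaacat
Trpm6 had 1 match in this window and the other 2 none, while 16.6% of 32851 such promoter windows of the genome had at least 1. The ERR motif TCAAGGTCA, held by 0.423% of windows, was found in none of the 3. A match is only a run of letters and says nothing here about binding.

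Calcium genes were mostly higher in the connecting tubule. Of 8 tested outside the rule, 5 were higher and 1 lower, beside 6.7 and 7.39% over all genes, with a median of 0.76. S100g, the small calbindin, was at 331, 210 and 330 CPM in control and 185, 288 and 220 CPM in knockout connecting tubule nuclei, and at 141, 65.2 and 61.8 and at 77.1, 33.0 and 35.7 CPM in distal convoluted tubule nuclei. The sets did not overlap, and the difference was 1.84 ± 0.24 (SE, adjusted p = 2.15e-08). Klk1, tissue kallikrein, a protease secreted by this segment, differed by 1.59 ± 0.21 (adjusted p = 2.90e-08). The calcium pump gene Atp2b2 differed by 1.93 ± 0.25, Kl by 0.92 ± 0.14 and Vdr by 0.60 ± 0.16. Vdr was higher in 5 of 6 libraries, and its call was lost without knockout 3 (adjusted p = 0.0723). Atp2b1, another calcium pump, was lower by 0.71 on the log2 scale (-0.71 ± 0.24, adjusted p = 0.0334), a call lost without any of 4 of the 6 libraries (control 1, control 2, knockout 1 or knockout 2).

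Genes of magnesium handling were lower. Of 6 tested, 4 passed, all below the distal convoluted tubule, where 7.39% of all genes were lower, and the list's median was -1.75. Egf, the precursor of a growth factor that raises magnesium uptake, was at 472, 551 and 79.7 CPM in control and 147, 403 and 220 CPM in knockout connecting tubule nuclei, and at 4786 to 9162 CPM in distal convoluted tubule nuclei. The sets did not overlap, with a log2 difference of -4.65 ± 0.22 (SE, adjusted p = 5.39e-23). The channel gene Trpm7 differed by -2.48 ± 0.15 and Trpm6 by -1.95 ± 0.23. Cnnm2, needed for magnesium transport across the basolateral side, differed by -1.56 ± 0.20. Each of the 4 was lower in 6 of 6 libraries.

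Genes of aldosterone and WNK signalling split. Nr3c2 was higher by 0.89 ± 0.13 and Nedd4l by 1.00 ± 0.15, both in 6 of 6 libraries. Klhl3, an adaptor that marks WNK kinases for removal, was lower (-1.65 ± 0.16), as were Wnk1 (-0.94 ± 0.14), Wnk4 (-0.96 ± 0.17) and Fkbp5. The other 3 of the 9 tested did not pass, where 14.1% of all genes did, and the list's median was -0.72. Among 3 genes of water transport and vasopressin signalling, the prostaglandin receptor gene Ptger3 was lower (-0.94 ± 0.33, adjusted p = 0.0480), a call lost without each library but control 2.

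Transcription factors of the distal nephron went both ways. Of 18 tested, 4 were higher (Pax2, Tfcp2l1, Pax8 and Prdm16) and 4 lower (Esrrb, Lhx1, Sall3 and Mecom), beside 6.7 and 7.39% over all genes, with a median of 0.11. Pax2, a factor of kidney development, was at 309 to 455 CPM over the 6 libraries against 122 to 175 CPM in the distal convoluted tubule (1.33 ± 0.17). Tfcp2l1, needed for collecting duct cell types, was at 803 to 1258 against 445 to 620 CPM (0.99 ± 0.13). Esrrb, an orphan nuclear receptor, was at 11.4 to 70.9 against 357 to 903 CPM, a difference of -3.79 ± 0.26 (SE). Tfap2b (0.17 ± 0.16) and Gata3 (0.61 ± 0.23) did not pass, with adjusted p of 0.635 and 0.0683. Gata3 passed without control 1 (0.0375) or without knockout 3 (0.0479). Mecom lost its call without any library but control 3, and Prdm16 without control 3 (adjusted p = 0.127). In the growth factor list, 6 of 13 passed and all 6 were lower (Egf, Erbb4, Pdgfc, Fgf9, Met and Fgfr1), beside 7.39% of all genes. The calls of the receptor genes Met and Fgfr1 were each lost without control 3, knockout 1 or knockout 3, and that of Fgfr1 also without knockout 2.

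Outside the lists, the 6 genes with the smallest p in each direction were taken. Egfem1, a gene with EGF-like domains, was at 1888 to 5361 CPM in the connecting tubule and 114 to 391 in the distal convoluted tubule, a difference of 4.03 ± 0.16 (SE, adjusted p = 1.98e-25). Frmpd4, a scaffold gene, differed by 3.75 ± 0.17, Tbck by 2.63 ± 0.15 and the BMP receptor gene Bmpr1b by 2.82 ± 0.18. The last 2 of these 6 were Scnn1g and Scnn1b. On the lower side, beside Egf, Trpm7 and Esrrb, the kinase gene Prkd1 differed by -4.09 ± 0.20 and Abca13 by -1.76 ± 0.14. The kinase gene Stk32b had 2 UMIs in the connecting tubule and 744 in the distal convoluted tubule, a ratio per UMI of 0.0110 (exact 95% interval of counting error 0.00132 to 0.0397).

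**Figure D3:**
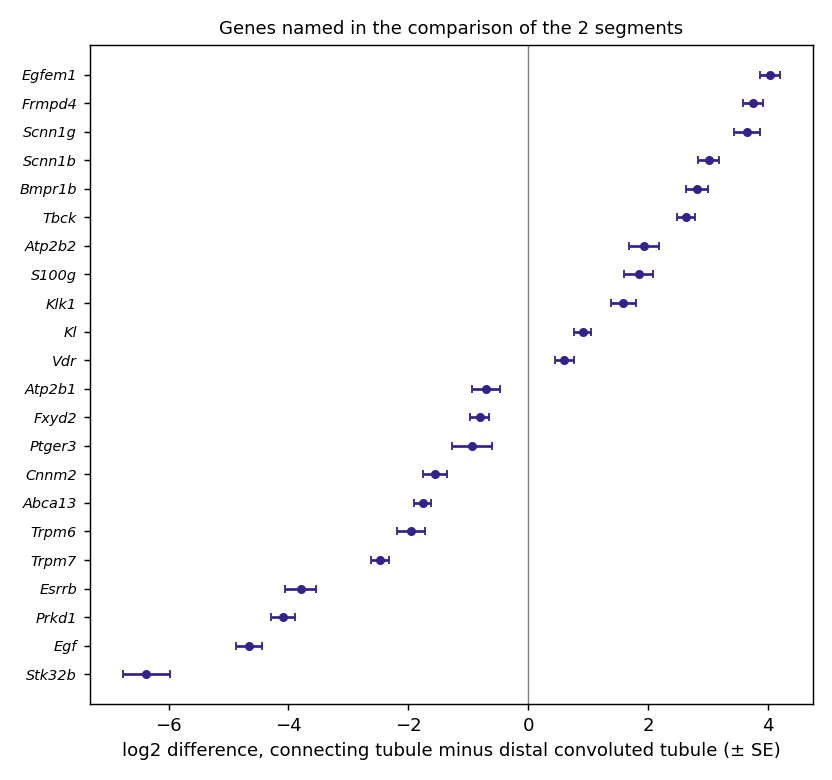
Log2 difference of the named genes, connecting tubule minus distal convoluted tubule, with its SE as bars. Points right of 0 are higher in the connecting tubule. Egfem1 stands highest at 4.03, and Stk32b lowest, where the fitted value rests on 2 UMIs.

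Detection of the channel per nucleus was compared after thinning each nucleus to 1000 UMIs, which left out 4, 37 and 35 shallower control and 35, 23 and 52 knockout nuclei. A UMI of Scnn1b or Scnn1g was found in 39.1% of 23, 42.9% of 7 and 78.9% of 38 control nuclei, and in 60.3% of 63, 54.5% of 11 and 71.4% of 35 knockout nuclei. The 3 knockouts lay between control 2 and control 3. Distal convoluted tubule nuclei gave 9.01 to 15.0%, and 500 proximal tubule nuclei per library, which should lack these genes, 1.6 to 4.4%. The median depth before thinning was 816 to 1458 UMIs in connecting tubule and 772 to 1530.5 in distal convoluted tubule nuclei. Without thinning the connecting tubule shares were 51.9, 45.5 and 75.3% in controls and 70.4, 58.8 and 80.5% in knockouts, against 6.87 to 18.7% in the distal convoluted tubule and 4.6 to 9.4% in the proximal tubule. The mean shares after thinning, 53.6% ± 22.0 and 62.1% ± 8.58 (SD, n = 3 each), gave p = 0.6 in the exact permutation test. Their difference of 8.45 points was smaller on leaving out control 1 (to 1.20), control 2 (3.06) or knockout 3 (3.79), and was 21.1 when control 3 was left out.

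Members with a Slc12a3 UMI were set against those with none within libraries. There were 7, 7 and 14 such nuclei in controls and 24, 6 and 6 in knockouts, 64 in all. None of 404 genes tested passed in edgeR (0%), with 14 at an unadjusted p under 0.05. On the higher side the smallest p belonged to Kng2 (0.89 ± 0.28), Wnk1 (0.56 ± 0.18), Abca13 (0.86 ± 0.31), Klhl3 (0.61 ± 0.24), Sgms2 (0.69 ± 0.28) and Nsmce2 (0.73 ± 0.31), as log2 differences with SE. Of these, Wnk1, Klhl3 and Abca13 were among the genes that were higher in the distal convoluted tubule, as were 7.39% of all genes tested between the segments. Both comparisons divided nuclei by Slc12a3, so this match is only a description. On the lower side they were Gpx3 (-0.71 ± 0.22), Shroom3 (-0.70 ± 0.31), Grb14 (-0.73 ± 0.33), Igfbp7 (-0.86 ± 0.40), Naaladl2 (-0.69 ± 0.33) and Col27a1 (-0.62 ± 0.30).

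No gene passed between knockout and control connecting tubule nuclei in the unpaired test. Of 1384 genes with enough counts, 0 passed (0%) in edgeR, 90 (6.5%) had an unadjusted p under 0.05, and DESeq2 called 0 with 32 at that unadjusted level. In 166 genes (12%) the groups did not overlap, 72 with all knockouts higher (5.2%) and 94 with all lower (6.79%). The median log2 difference over all genes was -0.00. Counts of this size were also simulated, with the same dispersion for every gene and no difference between libraries of a group but depth. That dispersion was a set value, not estimated from these libraries. On the simulated counts the test recovered 94.9% of 78 genes changed 4-fold but 26.5% of 83 changed 2-fold. These percentages leave out changed genes that the low-count filter dropped, so recovery over all changed genes was lower. Differences near 2-fold would thus often be missed. The simulation does not show how many larger ones would be found in the real libraries, which vary more than in depth.

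Libraries with the same number deviated together, weakly for control 2 and knockout 2, and the processing notes give the check. The pairing was taken from these same counts. With the replicate number as a block 22 genes passed (1.59%), 8 higher and 14 lower. The p-values of this blocked fit lay near those of a normal curve at the log2 difference over its SE. The fit thus relied almost wholly on a spread shared over genes. Its p-values say little of a single gene's own spread between libraries, and a smaller p need not come with a smaller SE. The following of the 22 are named after their values were seen. Higher were Trpm6, Gramd1b, Npnt, Arnt2, Itgb6, Clint1, Setd5 and the clone gene Gm47283. Those lower included Col26a1, Mgat4c, Nox4, Cadm2, Tmbim6, Fth1, Cyb5a, the mitochondrial genes mt-Nd4 and mt-Co3, Gm42418, and Kap, Gpx3 and Cyp4b1, which are abundant in proximal tubule. Kap was at 12186, 1521 and 683 CPM in control and 2851, 317 and 517 CPM in knockout nuclei, so it was highest in control 1, the library with the highest proximal tubule marker sum and mitochondrial share. Without control 1 and with no block, the log2 differences of Kap (0.39), mt-Nd4 (1.10), mt-Co3 (1.38) and Fth1 (0.66) had the opposite sign, and none passed. The block without control 1 was an alternative added after seeing the data. It leaves knockout 1 alone in its block, so the group difference then rests on the libraries not numbered 1. That test gave 16 genes, of which 7 were among the 22 (Trpm6, Col26a1, Gramd1b, Npnt, Nox4, Cadm2 and Setd5), and Kap and Gpx3 were not. The other 9 included Pck1 and Slc6a18, also known from proximal tubule.

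**Figure D4:**
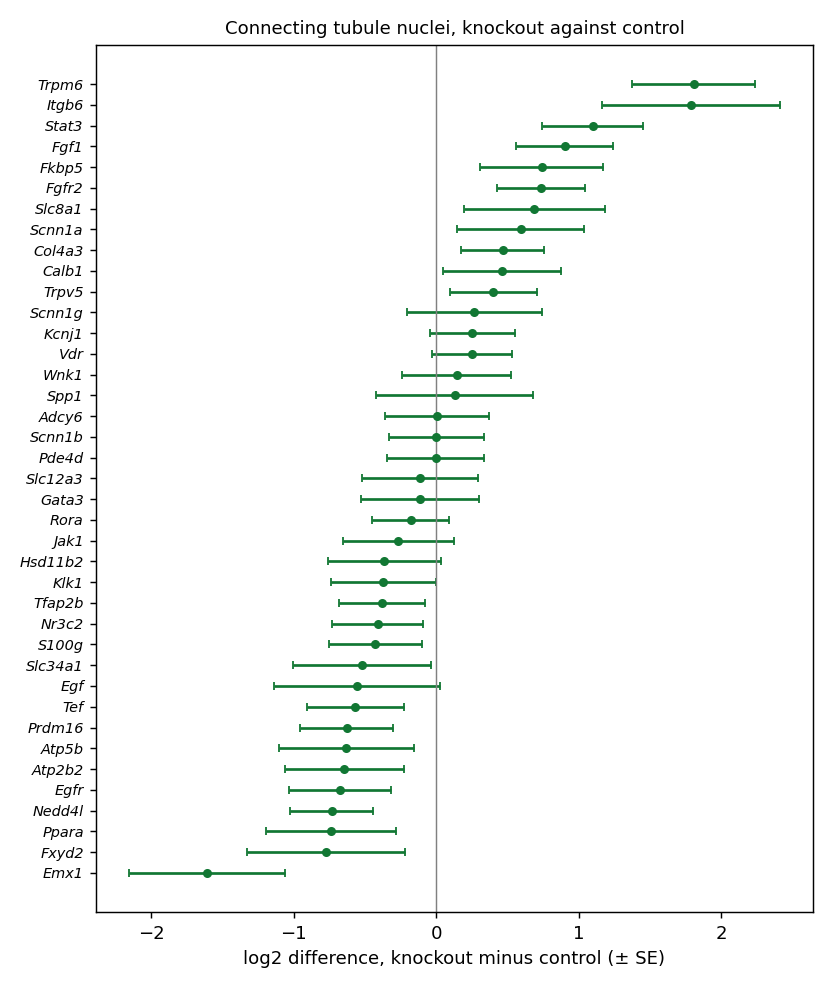
Log2 difference, knockout minus control, in connecting tubule nuclei for the genes named by rule, with its SE as bars (unpaired fit). Trpm6 is highest at 1.81 and Emx1 lowest at -1.61, and none passed the adjusted threshold.

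Trpm6 (chr19:18749983-18892511, plus strand, GRCm38) was the gene of the magnesium list with the smallest p. It was at 165, 367 and 137 CPM in control and 440, 576 and 1154 CPM in knockout nuclei. All 3 knockouts were above all 3 controls, at a log2 difference of 1.81 ± 0.43 (SE, adjusted p = 0.605, or 1.88 and adjusted p = 5.63e-06 with the replicate block). The order held on 1 side of the Slc8a1 limit. Above the limit Trpm6 was at 394, 604 and 360 CPM in controls and 1443, 1074 and 1638.5 CPM in knockouts, without overlap. Below it the values were 150.7, 150.6 and 73.1 against 241, 202 and 136 CPM, where knockout 3 fell within controls.

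In distal convoluted tubule nuclei Trpm6 went the other way, at 1772, 2006 and 2859 CPM in controls and 1172, 1319 and 1734 CPM in knockouts. All knockouts there were below all controls, at -0.71 ± 0.24 (SE), which did not pass (adjusted p = 0.827). The difference between the 2 segments' knockout differences was itself tested over 3281 genes, and 3 passed (0.0914%), 1 higher (0.0305%) and 2 lower (0.061%). For Trpm6 it was 2.55 ± 0.35 (SE, adjusted p = 2.30e-06), and without control 3 it was 1.93 and did not pass (adjusted p = 0.0583). The other 8 alternatives kept the call, with values from 2.19 to 3.09.

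The limit on Slc12a3 bears on this result. Nuclei with the same markers but 3 or more Slc12a3 UMIs held Trpm6 at 1873, 1755 and 2978 CPM in controls and 1490, 1201 and 2404 CPM in knockouts. In all 852 nuclei with the markers, whatever their Slc12a3 count (an alternative added after seeing the data), Trpm6 was at 1476, 1148 and 1981 CPM in controls and 1040, 857 and 1811 CPM in knockouts. The direction thus turned, to -0.34 (adjusted p = 0.944). Of these nuclei, 29.0, 48.4 and 36.1% in controls and 43.8, 55.7 and 48.1% in knockouts fell within the limit and so counted as connecting tubule. With Slc12a3 at 0 the difference in Trpm6 was 2.53 (adjusted p = 0.264).

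**Figure D5:**
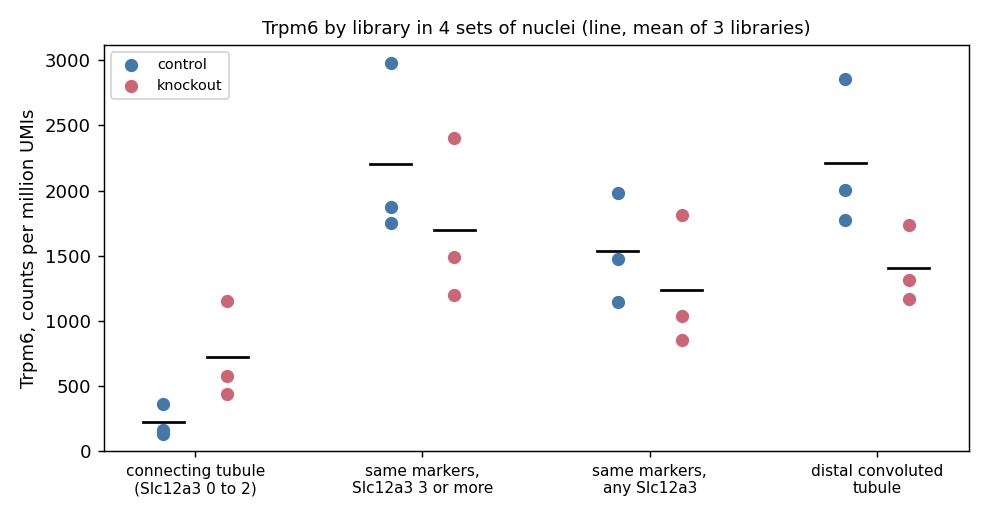
Trpm6 in CPM (vertical axis) by library in 4 sets of nuclei, with controls in blue, knockouts in red and the mean of 3 libraries as a line. Knockouts lie above controls only within the Slc12a3 limit of 0 to 2 (440 to 1154 against 137 to 367). In the distal convoluted tubule they lie below them, and the 2 sets between overlap.

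Col26a1 and Rtl4 were the other genes whose knockout difference differed between the segments. Col26a1 (chr5:136741759-136883209) was at 331, 288 and 615 CPM in control and 147, 0 and 11.0 CPM in knockout connecting tubule nuclei, all knockouts lower (-2.50 ± 0.62, adjusted p = 0.605, or -2.74 and adjusted p = 9.84e-08 with the block). Without knockout 1 the unpaired difference was -5.50 (adjusted p = 0.000417). In the distal convoluted tubule it was at 0 to 25.0 CPM in every library, and the difference between segments was -3.73 ± 0.83 (adjusted p = 0.0325). Col26a1 was a gene of nuclei with little Slc8a1, and within these it was at 352, 552 and 774 CPM in controls and 157, 0 and 34.1 CPM in knockouts. Rtl4, a retrotransposon-derived gene on the X chromosome, had 30 UMIs in all connecting tubule nuclei, at 260, 157 and 56.9 CPM in controls and 54.1, 28.8 and 0 CPM in knockouts. In the distal convoluted tubule Rtl4 was at 309, 261 and 170 CPM in controls and 352, 363 and 465 CPM in knockouts, and the difference between segments was -2.79 ± 0.61 (adjusted p = 0.0325). Both calls were lost without control 1, without control 3 or without knockout 3. That of Rtl4 was also lost with no low-count filter (adjusted p = 0.0589) and without both libraries numbered 1 (0.135).

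The gene with the smallest unpaired p, named after its value was seen, was Mgat4c. It was at 260, 288 and 262 CPM in controls and 46.4, 115 and 55.0 CPM in knockouts, all knockouts lower. The unpaired difference was -2.10 ± 0.41 (SE, adjusted p = 0.291). With the block it was -2.08 ± 0.52 (SE, adjusted p = 0.00775), so the adjusted p was smaller though the SE was larger. Like Col26a1 it lay almost wholly in nuclei below the Slc8a1 limit, where it was at 276, 552 and 336 CPM in controls and 55.6, 202 and 136 CPM in knockouts.

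The calcium genes gave no call. Of 9 tested, 6 were higher and 3 lower in knockouts (median 0.19), and 3 of the 6 were the markers of the rule. Since those markers chose the nuclei, this count and median are only a description. S100g differed by -0.43 ± 0.32, Klk1 by -0.37 ± 0.37, Vdr by 0.25 ± 0.28 and Atp2b2 by -0.64 ± 0.42, each with overlapping groups. Trpv5 was the only 1 of the 9 whose groups did not overlap (0.40 ± 0.31), beside 12% over all genes. As a gene of the rule it is given only as a description. Slc8a1 differed by 0.69 ± 0.50 and Calb1 by 0.46 ± 0.42. The calcium pump genes Atp2b1 and Atp2b4 had too few counts for a test, with 49 and 75 UMIs.

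Sodium and aldosterone genes gave none either. Of 10 sodium and potassium genes, among them Slc12a3, which the rule limits, 5 were higher and 5 lower (median -0.03). Scnn1a differed by 0.59 ± 0.45, Scnn1b by 0.00 ± 0.33, Scnn1g by 0.27 ± 0.47, and Kcnj1, the ROMK potassium channel, by 0.25 ± 0.30. Fxyd2 had the smallest p of this list (-0.77 ± 0.56). Among 9 aldosterone and WNK genes (median 0.01), Nedd4l was at 1181, 1337 and 2060 CPM in controls and 819, 922 and 1033 CPM in knockouts. All knockouts were lower, at -0.73 ± 0.29 (adjusted p = 0.650, and 0.143 with the block). Fkbp5, induced by corticosteroids, differed by 0.74 ± 0.43, Nr3c2 by -0.41 ± 0.32, Hsd11b2 by -0.36 ± 0.40 and Wnk1 by 0.15 ± 0.38, with overlapping groups. In the magnesium list of 6 (median -0.00), Egfr was next to Trpm6 at -0.67 ± 0.36, and Egf was at -0.55 ± 0.58. The 2 testable genes of water transport and vasopressin signalling, Adcy6 and Pde4d, differed by 0.01 ± 0.37 and -0.00 ± 0.34.

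Among transcription factors of the distal nephron, 2 of 13 were higher and 11 lower, with a median of -0.22 and groups that did not overlap in 3 (Emx1, Tfap2b and Pax2), beside 12% over all genes. Emx1, a homeobox gene, was at 189, 184 and 228 CPM in controls and 85.0, 0 and 66.0 CPM in knockouts, all lower (-1.61 ± 0.55, adjusted p = 0.629, and 0.133 with the block). Prdm16 differed by -0.63 ± 0.33, Tfap2b by -0.38 ± 0.30 and Gata3 by -0.11 ± 0.41. In the matrix list all 7 genes tested were higher (median 0.39). Its leading member, the integrin gene Itgb6, was at 0, 184 and 45.5 CPM in controls and 239, 346 and 154 CPM in knockouts, where knockout 3 lay below control 2 (1.79 ± 0.63, adjusted p = 0.629, and 0.0488 with the block). Without control 2 the unpaired value was 2.90 (adjusted p = 0.864). The basement membrane gene Col4a3 differed by 0.47 ± 0.29.

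In the list of KLF and STAT3 genes, 3 of 5 tested were higher (median 0.07). Stat3, a transcription factor of cytokine signalling, was at 94.5, 131 and 205 CPM in controls and 247, 317 and 429 CPM in knockouts. Every knockout was above every control, at 1.10 ± 0.36 (adjusted p = 0.629, and 0.0896 with the block). A difference of like sign stood in distal convoluted tubule nuclei (1.03 ± 0.28) and in all nuclei together (0.78 ± 0.23), neither past the threshold (adjusted p = 0.611 and 0.277). Jak1, its kinase, differed by -0.26 ± 0.39. Of 9 growth factor genes (median -0.10), Fgf1 was at 189, 131 and 148 CPM in controls and 232, 317 and 341 CPM in knockouts (0.90 ± 0.34, adjusted p = 0.637). The receptor gene Fgfr2 was also higher in all knockouts (0.74 ± 0.31, adjusted p = 0.654).

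Stress and defence genes mostly had too few counts to be tested. Of 34 genes of tubule injury only Spp1, osteopontin, had enough counts (0.13 ± 0.55), and none of 25 interferon or 26 cell cycle genes did. Of 2 clock genes tested, Tef (-0.57 ± 0.34) and Rora (-0.18 ± 0.27), both were lower without passing. Among 13 genes of oxidative metabolism (median -0.09), Ppara (-0.74 ± 0.46) and Atp5b (-0.63 ± 0.47) had the smallest p.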

How the data were processed

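Single-nucleus RNA (10x Chromium) of kidney cortex was counted in 3 control and 3 knockout libraries. The authors deposited raw UMI counts per gene and barcode, and per the file headers Cell Ranger 3.1.0 wrote them. The submitters' processing notes list build mm10 and Seurat without saying what each was used for. Other settings are not given in the sources used here. Of 31053 genes in the files, 31011 matched GENCODE M21 (GRCm38).

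Nuclei were chosen by the marker rule alone, so names rebuilt here can differ from the study's. The members, gene lists and tests were chosen with earlier results of these data known. Counts were summed per library (423443 UMIs in 363 nuclei, 34700 to 129440 per library) and compared by the quasi-likelihood test of edgeR 4.0.16 after filterByExpr and TMM scaling, with Benjamini-Hochberg adjustment over all genes tested. Segments were compared with library as a block. DESeq2 1.42.0 was an alternative. SE is the log2 difference divided by the root of F. CPM is per 1000000 UMIs of the set, without length correction, so levels are compared only within a gene. Doublets were scored with Scrublet in scanpy 1.11.5 and stayed in the sets.

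The replicate numbers come from the sample titles. Deviations from the group means of same-numbered libraries correlated at 0.339, 0.122 and 0.204 over 1384 genes. Differently numbered libraries correlated at -0.286 to 0.0972, the highest being control 3 with knockout 2, close to the 0.122 of control 2 with knockout 2. The numbers were taken to pair libraries from these same counts, and no label says what they mark. The titles also carry a code per library, whose meaning is not given. Its first letter is the same in all controls, occurs in no knockout, and so is shared by no same-numbered pair.

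Named genes were the 10 of the rule, 17 chosen for the segment, the 2 with the smallest p in each list (up to 4 where called), and between segments the 6 with the smallest p in each direction, leaving out clone, mitochondrial and ribosomal names, and all called members of 4 lists. Called members of the aldosterone, transcription factor and growth factor lists were added after their values were seen. The test was tried on simulated counts. Alternatives are given in the closing section. Principal nuclei were too few to compare, 32 in all. Some genes are not reported here.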

Additional observations from a re-analysis of the deposited data

Results flagged for a closer look

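Trpm6, the magnesium channel gene, had a knockout difference in connecting tubule nuclei that differed from that in distal convoluted tubule nuclei, by 2.55 on the log2 scale (SE 0.35, adjusted p = 2.30e-06 by the interaction in edgeR). Knockouts were higher in 3 of 3 libraries in the first set and lower in 3 of 3 in the second. The value ranged from 1.93 to 3.09 over 9 alternatives. Without the limit on Slc12a3 the knockout difference of the marker nuclei was -0.34, and the part of that limit in the interaction was not tested.

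For Rtl4, the retrotransposon-derived gene, the segments' knockout differences differed by -2.79 (adjusted p = 0.0325), on 30 UMIs in connecting tubule nuclei, with values from -4.73 to -2.05 over 9 alternatives and adjusted p from 0.00301 to 0.585. For Col26a1, the collagen gene, they differed by -3.73 (adjusted p = 0.0325), with values from -6.89 to -3.07 and adjusted p from 0.00185 to 0.995. In the distal convoluted tubule Col26a1 had 28 UMIs in all.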

How the results depend on the processing

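The count of genes called between knockout and control nuclei was 0 under 14 alternatives, among them RLE scaling, DESeq2, no limit on Slc12a3 and 5 of the 6 left-out libraries. These differed in the genes tested, from 55 with all 3 markers detected to 3670 with no limit on Slc12a3, against 1384 in the main fit. The count was 0 to 3 when each library was left out, with 3 without knockout 1 (Trpm6, Npnt and Col26a1). It was 22 with the replicate block, 16 with the block and without control 1, 5 with no low-count filter (4 of them among the 22), 3 without both libraries numbered 1 and 1 (Frmpd4) with markers at 2% or more of UMIs. The blocked fit thus gave the most calls, and the other alternatives that moved the count gave 1 to 16. Without control 1 the block leaves knockout 1 unpaired, so that count rests on the libraries not numbered 1. Between segments the count was 270 to 355 when a library was left out and 564 with no filter, where 196 were higher and 368 lower. The interaction count was 0 to 6 when a library was left out, with 1 without control 1 or knockout 3, 6 without control 2, 0 without control 3 and 5 without knockout 2. Members with and without a Slc12a3 UMI differed in 2 genes of 15132 with no filter, both lower in members with a UMI.

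The difference in share (-0.0429 points) ranged from -0.420 to 0.208 when a library was left out. It was 0.0464 with a marker sum of 6 or more, 0.0103 with Slc12a3 of 0 and 0.0639 with all 3 markers. Without nuclei holding at least 2 UMIs of other cell types it was 0.0868, and with markers at 2% or more 0.208. In the other direction it was -0.500 with no limit on Slc12a3, -0.173 when thinned to 1000 UMIs and -0.0583 with the highest doublet scores removed. With the replicate block it stayed at -0.0429 (exact permutation p = 1). The Scnn1b or Scnn1g share, 8.45 points higher in knockouts, ran from 1.20 to 21.1 when a library was left out and was -54.1 when thinned to 2000 UMIs, which left 1 to 11 nuclei per library.

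Of the values of 59 genes between knockout and control under the alternatives, 53 changed sign, 39 newly passed and 915 did neither. When each library was left out, log2 values ran from -0.20 to 0.73 for Calb1, -0.14 to 0.0024 for Slc12a3, -0.012 to 0.39 for Vdr, -0.33 to 0.32 for Scnn1b, -0.37 to 1.10 for Scnn1g, -0.30 to 0.40 for Wnk1, -1.15 to 0.020 for Fxyd2, -0.20 to 0.14 for Adcy6, -0.23 to 0.17 for Pde4d, -0.25 to 1.01 for Spp1, -3.66 to 0.39 for Kap, -2.07 to 0.66 for Fth1, -3.25 to 1.38 for mt-Co3 and -3.54 to 1.10 for mt-Nd4. The reversed values of Calb1, Vdr, Scnn1g and Wnk1 came without knockout 3. Without both libraries numbered 1 they were 0.14 for Klk1, 0.19 for Egf, -0.12 for Adcy6, 0.15 for Jak1 and 0.042 for Fth1. Without control 1 and with the block they were 0.13 for Klk1, -0.0020 for Scnn1b, 0.37 for Egf, -0.12 for Adcy6, 0.14 for Jak1 and 0.035 for Fth1. With the block alone they were 0.0004 for Gata3, 0.036 for Pde4d and -0.066 for Spp1. With no limit on Slc12a3 they were -0.34 for Trpm6, -0.21 for Wnk1, 0.19 for Gata3, 0.14 for Hsd11b2 and 0.099 for Jak1. With nuclei of other types' UMIs removed they were 0.010 for Klk1 and -0.0016 for Kcnj1. With markers at 2% Egf was at 0.070. With a marker sum of 6 or more they were -0.18 for Adcy6 and 0.051 for Pde4d, and with Slc12a3 of 0 they were -0.14 and 0.092. With all 3 markers they were -0.17 for Wnk1 and 0.14 for Pde4d. With doublets removed they were 0.011 for Slc12a3 and 0.029 for Pde4d. Pde4d was at 0.0099 with RLE scaling, 0.057 with no filter, 0.0020 with totals without Slc8a1 and 0.0079 with DESeq2, where Spp1 was at -0.025. Within members, Wnk1 was at -0.062 with no filter. Between segments Scnn1a ran from -0.0068 to 0.49 when a library was left out, and Tfap2b was at -0.045 with no filter. The cause was not tested.

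Depth set the number of genes tested, 1384, from 34700 to 129440 UMIs per library. The comparison with principal nuclei was not run, since most libraries had under 10 of them.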
